A study of Mus musculus with 26 samples.

Results

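The 10 genes described here, Atf4, Nupr1, Pck2, Asns, Chac1, Trib3, Psat1, Phgdh, Ddit3 and Slc7a11, are genes linked to the transcription factor ATF4. They are 10 of 53978 genes in the table of the dTAG13 experiment and 10 of 50969 in the table of the overexpression experiment, and all 10 were found in both. They were listed because Pck2 and Nupr1 were among the most reduced genes under dTAG13, so the list was chosen by the dTAG13 against DMSO differences, and the values of that experiment are given as a description, with no test. Tests of these genes are given for the overexpression and testis experiments, whose differences were not the reason for the choice. Earlier results of these data were known when the list was drawn, so these tests are not fully independent of it.

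ATF4 is the main transcription factor of the integrated stress response. Kinases that sense amino acid shortage, unfolded protein in the endoplasmic reticulum (ER), viral RNA or a lack of heme phosphorylate the translation factor eIF2, which slows protein synthesis in general while the Atf4 messenger is translated more. ATF4 then binds amino acid response elements, often as a dimer with a C/EBP protein, and switches on genes for amino acid synthesis, amino acid uptake and the charging of tRNAs, together with stress regulators such as Ddit3 (CHOP). Because much of this control acts on translation, the amount of Atf4 messenger does not give the amount of ATF4 protein, which these data do not measure.

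The series asks what Tex10 does when primordial germ cell-like cells (PGCLCs) form from epiblast-like cells (EpiLCs) in culture, and in sperm formation in the mouse. In the dTAG13 experiment, 129Sv/J cells in which dTAG13, a small molecule that sends a tagged protein to degradation, was used at 500 nM to deplete Tex10 were compared with cells given the solvent DMSO, at day 2 and day 4 of PGCLC induction, with untreated EpiLCs as the starting point (5 groups of 2 libraries). In the overexpression experiment, 129Sv/J cells of 1 empty-vector line and 2 Tex10 overexpression clones gave 1 library each at 4 stages, EpiLCs and PGCLC days 2, 4 and 6. In the testis experiment, 2 libraries came from Tex10 conditional knockout (cKO) and 2 from wildtype C57BL/6N testis. The promoter that drives the deletion in testis and the time at which dTAG13 was added are not given in the sources used here, and an effect of dTAG13 on cells without the tag was not analysed here. Nothing in the labels says whether libraries of a group came from separate cultures, so p-values measure the spread between these libraries, which may be technical.

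Values are CPM, that is reads relative to library size, which the authors scaled by the trimmed mean of M values (TMM). Differences are of log2(value + 1), a scale on which the changes of low genes come out smaller than they are. Libraries held between 5055362 and 8564563 reads. Tex10 messenger was at 104 and 94.0 with dTAG13 against 106 and 113 with DMSO at day 2, and at 76.8 and 72.8 against 110 and 105 at day 4. The degron acts on the protein, which was not measured. In the clones Tex10 was between 330 and 654 against 145 to 213 in the vector line, and in testis it was at 29.8 and 27.3 in cKO against 79.1 and 44.1 in wildtype. The germ cell markers (Prdm1, Prdm14, Tfap2c, Dppa3 and Nanos3) summed to between 37.3 and 40.7 in the EpiLC libraries of the dTAG13 experiment. At day 2 the sums were 185 to 203 with DMSO and 197 to 198 with dTAG13, and at day 4 they were 153 to 170 with DMSO and 222.5 to 232 with dTAG13, so that the treatments did not overlap at day 4. Of the 5, none was at 0 in any group. The sums do not stand for each marker. The dTAG13 difference in log2 at day 4 minus that at day 2 was 1.09 for Tfap2c (standard error 0.257). It was 0.099 for Dppa3, -0.52 for Prdm1, -0.20 for Prdm14 and -0.23 for Nanos3. The formative epiblast markers summed to between 1230 and 1457 in EpiLCs. They were at 143 to 174 with DMSO and 157 to 158 with dTAG13 at day 2, and at 75.0 to 89.1 with DMSO and 96.3 to 101 with dTAG13 at day 4, again without overlap at day 4. The part of the 2 marker sets in the dTAG13 differences was not tested.

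A search of the 300 bases around each annotated start, 250 before and 50 from the start onward, gave the amino acid response element in the form TGATGNAA on either strand in 6 of the 10 genes. Nupr1, Pck2, Asns, Chac1 and Trib3 held it once and Slc7a11 had 2 copies, while Atf4, Psat1, Phgdh and Ddit3 had none in this window. In GRCm38.p6 these 4 genes lie at chr15:80255184-80257541 (Atf4, plus strand), chr19:15904678-15947337 (Psat1, minus), chr3:98313170-98339990 (Phgdh, minus) and chr10:127290774-127296288 (Ddit3, plus). Of all 32851 promoters of this length in the RefSeq table (GRCm38.p6), 3.97% held the motif, and of 27025 genes 4.51% had it in at least 1 promoter. A match of letters is a description and not a site of binding. The 6 promoters are shown because they hold the element that ATF4 is known to bind. They are written 5′ to 3′ on the gene's own strand, with the motif or its reverse complement in capitals.

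Nupr1, chr7:126625421-126625720, minus strand: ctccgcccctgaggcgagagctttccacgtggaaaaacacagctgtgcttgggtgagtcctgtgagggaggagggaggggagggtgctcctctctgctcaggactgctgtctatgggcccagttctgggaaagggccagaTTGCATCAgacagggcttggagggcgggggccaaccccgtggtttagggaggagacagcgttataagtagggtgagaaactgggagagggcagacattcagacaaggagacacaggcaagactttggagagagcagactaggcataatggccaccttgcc
Pck2, chr14:55540016-55540315, plus strand: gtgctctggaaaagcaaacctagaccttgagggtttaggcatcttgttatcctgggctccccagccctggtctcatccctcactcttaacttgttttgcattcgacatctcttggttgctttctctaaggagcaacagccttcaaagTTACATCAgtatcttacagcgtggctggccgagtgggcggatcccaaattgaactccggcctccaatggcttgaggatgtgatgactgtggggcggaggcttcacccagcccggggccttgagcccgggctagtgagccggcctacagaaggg
Asns, chr6:7693160-7693459, minus strand: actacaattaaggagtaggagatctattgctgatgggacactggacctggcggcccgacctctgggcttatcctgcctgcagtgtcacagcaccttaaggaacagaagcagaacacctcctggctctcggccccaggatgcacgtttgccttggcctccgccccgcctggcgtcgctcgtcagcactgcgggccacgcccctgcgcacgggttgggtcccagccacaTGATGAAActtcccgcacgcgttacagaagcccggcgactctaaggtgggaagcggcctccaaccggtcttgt
Chac1, chr2:119350992-119351291, plus strand: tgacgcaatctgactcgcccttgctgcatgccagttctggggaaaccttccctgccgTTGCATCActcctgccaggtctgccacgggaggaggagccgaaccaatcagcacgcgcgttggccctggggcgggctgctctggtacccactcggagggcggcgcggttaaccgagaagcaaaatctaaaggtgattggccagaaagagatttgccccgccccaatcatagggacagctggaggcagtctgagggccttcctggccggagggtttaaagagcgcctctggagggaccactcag
Trib3, chr2:152344011-152344310, minus strand: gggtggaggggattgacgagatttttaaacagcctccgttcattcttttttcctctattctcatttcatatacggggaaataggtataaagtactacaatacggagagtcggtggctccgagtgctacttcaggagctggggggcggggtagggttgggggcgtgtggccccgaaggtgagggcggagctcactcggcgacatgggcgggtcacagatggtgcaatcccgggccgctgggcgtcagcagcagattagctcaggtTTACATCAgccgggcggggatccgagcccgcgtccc
Slc7a11, chr3:50443564-50443863, minus strand: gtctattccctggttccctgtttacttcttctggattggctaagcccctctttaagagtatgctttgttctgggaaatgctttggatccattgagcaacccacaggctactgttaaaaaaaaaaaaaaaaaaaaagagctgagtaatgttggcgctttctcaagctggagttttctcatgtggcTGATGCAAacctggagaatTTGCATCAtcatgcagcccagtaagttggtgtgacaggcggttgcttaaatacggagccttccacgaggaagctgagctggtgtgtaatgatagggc

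Counted from the start base as 0, the first base of the motif lay at -110 in Nupr1, -103 in Pck2, -23 in Asns, -193 in Chac1 and 14 in Trib3, where it falls in the transcribed part. In Slc7a11 the 2 copies began at -66 and -47, on opposite strands. Nupr1 and Chac1 share the word TGATGCAA with both copies of Slc7a11, Pck2 and Trib3 share TGATGTAA, and Asns has TGATGAAA. The other ATF4-linked genes on the lists below held the motif in 13 of 36 with a promoter in the table (36.1%), among them Atf3 and Jdp2. None of the genes on the further lists did, with 0 of 5 other tRNA synthetases, 0 of 6 eIF2 kinases and factors, 0 of 10 ER chaperones and 0 of 4 NRF2 targets. Since 4.51% of all genes held the motif, a count of 0 in lists this short is near that share.

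**Figure D1:**
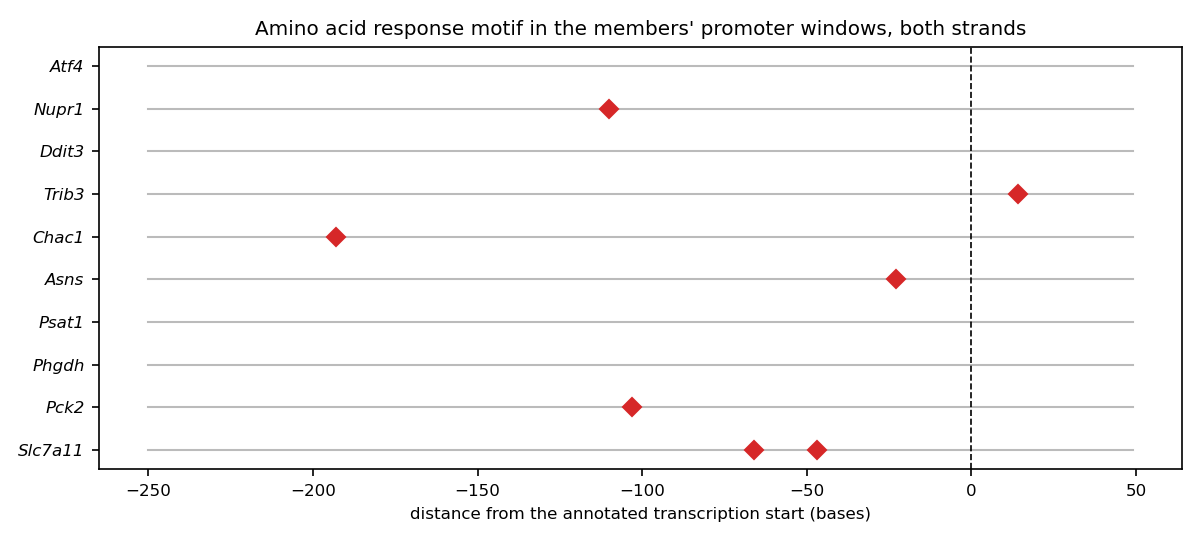
Position of the amino acid response element (diamonds, first base, either strand) in the promoter window of each of the 10 genes, in bases from the annotated start (dashed line at 0). Grey lines span the window searched, and 6 genes hold a match, Slc7a11 with 2.

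In the control cells of the dTAG13 experiment all 10 genes were higher at day 2 of induction than in EpiLCs, with both DMSO libraries above both EpiLC libraries, as in 30% of all tested genes, while 35.3% had both below. The DMSO values belong to the contrast that chose the genes, so this is a description. The ratio of means ran from 1.36 for Phgdh to 6.51 for Nupr1. The EpiLCs were untreated, so this step also differs by the solvent. Between day 2 and day 4 with DMSO the differences in log2 were small, from -0.62 for Slc7a11 to 0.47 for Ddit3. Depletion was then compared with DMSO at each day, to ask how far the genes kept these levels when Tex10 was degraded. At day 2, 9 of the 10 genes had both dTAG13 libraries below both DMSO libraries and Ddit3 had both above. At day 4 the genes with both below were 8, Ddit3 was again above, and Atf4 overlapped. Of all genes tested, 40.3% had both dTAG13 libraries below and 27.6% both above at day 2, and 41.7% and 26.8% at day 4. In bulk libraries such as these, fewer cells of a type and less RNA per cell cannot be told apart.

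The Atf4 messenger was lower with dTAG13 at day 2 and differed little between the treatments at day 4. Its values were 118 and 138 in EpiLCs, 223 and 217 with DMSO and 173 and 163 with dTAG13 at day 2, and 251 and 235 with DMSO and 246 and 245 with dTAG13 at day 4. At day 2 the treated libraries lay between the EpiLC and the DMSO libraries, and at day 4 they lay within the DMSO range. The differences in log2 were -0.39 at day 2 and 0.011 at day 4. The Atf4 messenger was thus at 76.2% of its DMSO mean at day 2 and 101% at day 4.

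Among the stress regulators the picture was mixed. Nupr1, a small chromatin-associated stress protein, was at 1.65 and 2.10 in EpiLCs and at 13.7 and 10.7 with DMSO at day 2, against 1.09 and 0.401 with dTAG13. At day 4 it was at 15.1 and 12.2 with DMSO and 1.17 and 1.27 with dTAG13. The dTAG13 libraries of both days thus sat below the EpiLC libraries, on 3 to 8 reads each. Its differences in log2 were -2.94 and -2.72, the first being the lowest of all 16605 genes tested, which is part of why the list was drawn. Trib3, a pseudokinase that feeds back on ATF4, was at 8.62 and 11.9 in EpiLCs, 39.5 and 41.9 with DMSO and 17.9 and 25.3 with dTAG13 at day 2. At day 4 it was at 39.1 and 45.8 with DMSO and 37.5 and 35.6 with dTAG13, so the treated libraries had moved close to the controls. Its difference was -0.90 at day 2 and -0.21 at day 4, the latter -0.094 without day 4 DMSO replicate 2 and -0.32 without DMSO replicate 1.

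Ddit3, which encodes CHOP, went the other way. It was at 1.27 and 0.554 in EpiLCs and at 2.77 and 2.31 with DMSO at day 2, against 17.9 and 17.0 with dTAG13. At day 4 it was at 3.22 and 4.68 with DMSO and 19.7 and 23.8 with dTAG13. The treated libraries were several-fold above every control library on each day, with ratios of means of 6.87 and 5.50 and differences in log2 of 2.38 and 2.21. Ddit3 shares exon bases with Mars, the methionyl-tRNA synthetase gene on the opposite strand, and with Gm4189, and the strand setting of the counting is not given in the sources used here. Mars, listed as Mars1, fell on each day: it was at 54.6 and 56.5 with DMSO and 40.4 and 38.1 with dTAG13 at day 2, and at 56.3 and 69.4 against 41.9 and 42.6 at day 4. At day 2 its call was lost without dTAG13 replicate 2 (limma adjusted p 0.0544) and with DESeq2 (adjusted p 0.0515).

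The metabolic genes were all lower with dTAG13 on each day. Pck2, the mitochondrial phosphoenolpyruvate carboxykinase, was at 17.5 and 18.7 in EpiLCs and at 65.9 and 70.6 with DMSO at day 2, against 21.0 and 10.4 with dTAG13. At day 4 it was at 82.5 and 96.1 with DMSO and 6.89 and 7.15 with dTAG13. The day 2 libraries straddled the EpiLC level and the day 4 libraries were below it, with differences in log2 of -2.13 and -3.49. Pck2 shares exon bases with the antisense gene Gm10876. Chac1, an enzyme that breaks down glutathione, was at 4.56 and 4.32 in EpiLCs, 30.3 and 25.5 with DMSO and 3.264 and 4.01 with dTAG13 at day 2, and at 26.2 and 31.2 against 2.64 and 2.54 at day 4. It was below both EpiLC libraries on each day with dTAG13, at 13.0% and 9.03% of the DMSO mean.

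Phgdh and Psat1 encode successive enzymes of serine synthesis. Phgdh was at 13.4 and 10.97 in EpiLCs, 18.9 and 14.4 with DMSO and 3.73 and 5.75 with dTAG13 at day 2, and at 18.4 and 15.4 against 1.76 and 2.07 at day 4. Psat1 was at 110 and 123 in EpiLCs, 264 and 272 with DMSO and 97.9 and 90.4 with dTAG13 at day 2, and at 270 and 227 against 71.6 and 58.6 at day 4. For both genes the treated libraries were below the EpiLC libraries on each day and lower at day 4 than at day 2, with differences in log2 from DMSO of -1.63 and -2.62 for Phgdh and -1.50 and -1.92 for Psat1. Asns, which makes asparagine, was at 104 and 118 in EpiLCs, 197 and 172 with DMSO and 60.9 and 61.8 with dTAG13 at day 2, and at 219 and 183 against 86.2 and 89.3 at day 4. It was below EpiLCs on each day but nearer to its control at day 4, with differences of -1.57 and -1.18. The 20 nearest tested genes on chromosome 6 had median differences of -0.34 and -0.17. Over all 817 tested genes of this chromosome the medians were -0.34 and -0.24, against -0.072 and -0.12 on the other autosomes. Slc7a11, a subunit of the cystine transporter, was at 0.887 and 0.776 in EpiLCs, 1.89 and 4.34 with DMSO and 0.155 and 1.20 with dTAG13 at day 2, and at 1.61 and 1.49 against 0.293 and 0.636 at day 4. These values rest on 1 to 32 reads per library, and its differences of -1.30 and -0.81 are correspondingly uncertain.

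**Figure D2:**
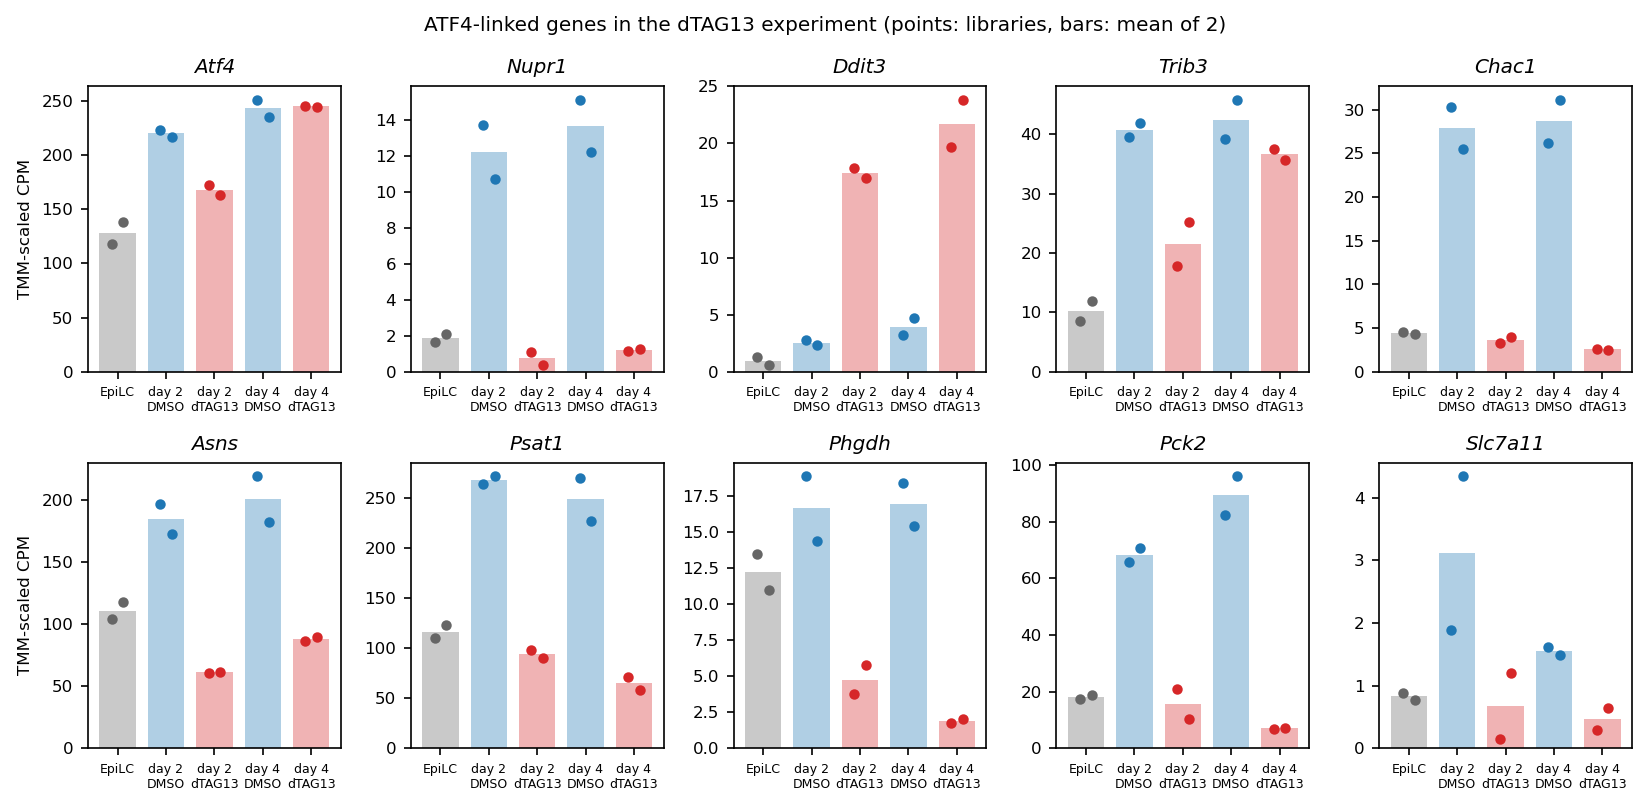
Level of each of the 10 genes in the dTAG13 experiment, in TMM-scaled CPM on axes that start at 0. Points are libraries and bars the mean of 2, with EpiLCs in grey, DMSO in blue and dTAG13 in red. Chac1, Nupr1 and Pck2 are at 13.0%, 6.10% and 23.0% of their DMSO mean at day 2, Atf4 is at 76.2%, and Ddit3 is above every control library. With 1 library left out, the day 2 differences in log2 ran from -3.23 to -2.65 for Nupr1 and from -2.60 to -1.65 for Pck2.

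Direction and timing differed among the 10 genes. The difference was larger at day 4 than at day 2 for Pck2, Phgdh, Psat1 and Chac1 and smaller for Trib3, Atf4 and Asns. For Pck2 the effect at day 4 minus that at day 2 was -1.36, but -0.89 without day 2 dTAG13 replicate 1 and -1.83 without replicate 2. For Trib3 it was 0.70, and 0.46 and 0.94 without the same libraries. For Chac1 it was -0.40 with a standard error of 0.321, so its order of the days is less certain. Nupr1 and Ddit3 had no stable order of the days. The value of 0.22 for Nupr1 became -0.066 without day 2 dTAG13 replicate 2, and that of -0.17 for Ddit3 became 0.039 without day 4 DMSO replicate 2. For Slc7a11 the sign held but the size did not: the value was 0.49, and 0.022 without day 2 dTAG13 replicate 1, where its day 2 difference was -0.83 in place of -1.30. Median-ratio scaling, which moved the median of all genes by 0.080 at day 2 and 0.10 at day 4, brought the share of higher calls over all genes to 52.0% at day 2, against 40.7% as deposited, and to 49.1% at day 4, against 37.8%. In the authors' deposited table Nupr1 had log2 fold changes of -4.05 and -3.47 and Chac1 of -2.93 and -3.46.

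Other genes that ATF4 is known to act on were put on 4 lists, with 47 genes in all, of which 46 passed the filter on low values (Fgf21 did not). A gene is said to rise or fall where limma's p, adjusted by Benjamini-Hochberg over all genes tested, was under 0.05. Most of the list was lower under dTAG13. At day 2, 33 fell and 6 rose, where 33.6% of all tested genes were called, 19.9% lower and 13.7% higher. At day 4, 34 fell and 6 rose, where 41.8% were called, 26.0% lower and 15.8% higher. The median differences in log2 were -0.68 and -0.86, against -0.090 and -0.13 over all genes tested. With median-ratio scaling 30 fell and 6 rose at day 2, and 31 fell and 6 rose at day 4. The 2 day 4 DMSO libraries disagreed most, with a chi-square per gene between replicates of 15.1. In the other groups of this experiment it was 3.56 to 5.23. The fit shares 1 spread over all 5 groups, so p-values at day 4 may be too small.

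Of the enzymes of serine, one-carbon and amino acid synthesis 9 of 10 fell on each day, with Aldh1l2 alone not passing and medians of -1.28 and -1.67. Mthfd2, the mitochondrial one-carbon enzyme, was at 70.3 and 70.8 with DMSO and 18.3 and 19.0 with dTAG13 at day 2 (a log2 difference of -1.86 with a standard error of 0.142, both libraries lower, limma adjusted p 2.44e-09). The 20 tested genes nearest to Mthfd2, on chromosome 6 like Asns, had medians of -0.28 at day 2 and -0.41 at day 4. Pycr1, of proline synthesis, was at 29.9 and 32.0 with DMSO and 6.75 and 5.72 with dTAG13 at day 4 (-2.14 with a standard error of 0.190, both lower, limma adjusted p 9.81e-09). Of 8 amino acid transporter genes, 6 fell and 1 rose at day 2, and 7 fell and 1 rose at day 4, with medians of -0.94 and -1.22. Slc1a5, which carries glutamine, was at 58.5 and 67.6 with DMSO and 17.1 and 21.8 with dTAG13 at day 2, and at 83.3 and 89.2 against 16.6 and 18.3 at day 4 (-1.65 and -2.24, limma adjusted p 1.36e-08 and 4.64e-11). The one that rose was Slc38a2, another carrier of neutral amino acids (0.50 and 0.51, limma adjusted p 0.000881 and 0.000526), which is named after its values were seen.

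On the ATF4-linked tRNA synthetase list of 13 genes, which also holds the tRNA export gene Xpot, 12 fell on each day. The medians were -0.61 and -0.69, and Cars did not pass. Of the 12, Wars was called in 6 of 13 alternatives at day 2 and 5 of 13 at day 4. Iars was called in 8 of 13 at day 2, and Xpot in 8 of 13 at day 4. Of 8 cytosolic tRNA synthetases that are not usually counted as ATF4 genes, 5 fell on each day and none rose, with medians of -0.41 and -0.50. The day 2 count was 2 or 3 when any 1 library of that day was left out (2 without either DMSO library or dTAG13 replicate 2, 3 without dTAG13 replicate 1), 3 with median-ratio scaling and 1 with DESeq2. The difference between the 2 lists was not tested.

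The stress factors and feedback genes were split: of 15 tested, 5 rose and 6 fell on each day, and the medians were -0.033 and 0.018. Without day 2 dTAG13 replicate 1 the 6 that fell at day 2 were 3. Atf3, a stress-induced transcription factor, was at 2.39 and 3.66 with DMSO and 23.5 and 25.6 with dTAG13 at day 2 (2.68, standard error 0.275, limma adjusted p 1.72e-07). Ddit4, an inhibitor of mTORC1 signalling, was at 57.7 and 60.4 with DMSO against 325 and 311 at day 2, and at 34.4 and 42.8 against 368 and 366 at day 4 (2.41 and 3.22, limma adjusted p 7.24e-12 and 1.64e-14). Both genes had every treated library above every control. Cebpb, a partner of ATF4, rose by 1.56 and 1.35 (limma adjusted p 0.000146 and 0.000419), the latter by 0.86 without day 4 DMSO replicate 1 (limma adjusted p 0.0187), Trib2 by 1.11 and 0.96 (0.000415 and 0.00118), and Sesn2 by 0.67 and 0.94. Jdp2, a relative of Atf3, was at 16.5 and 16.0 with DMSO and 2.95 and 3.61 with dTAG13 at day 2, and at 41.5 and 36.4 against 8.51 and 7.79 at day 4 (-2.01 and -2.13, limma adjusted p 7.65e-07 and 1.74e-07). Stc2, a secreted glycoprotein of the stress response, was at 13.6 and 12.8 against 3.264 and 2.94 at day 2 and at 10.6 and 15.5 against 1.17 and 1.59 at day 4 (-1.79 and -2.55, limma adjusted p 1.32e-05 and 5.63e-08). Vldlr, Herpud1, Eif4ebp1 and Atf5 made up the rest of the 6 that fell, and these 4 and Sesn2 are named after their values were seen. Of them Atf5 was called in 4 of 13 alternatives at day 2 and 2 of 13 at day 4, and Herpud1 in 7 of 13 at day 2. Vldlr lost its call at day 2 without dTAG13 replicate 1 (limma adjusted p 0.0604).

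Genes of neighbouring stress pathways were read beside these. The ER chaperone list, under ATF6 and XBP1, had 11 of 12 lower at day 2 and 12 of 12 at day 4, with medians of -0.67 and -1.12. Over all tested genes 33.6% were called at day 2, 19.9% lower and 13.7% higher. At day 4 41.8% were called, 26.0% lower and 15.8% higher. Of 7 eIF2 kinases and factors, 2 fell and none rose at day 2, a share near that of all genes. At day 4, 4 of the 7 fell and 2 rose. The day 2 count was 1 without DMSO replicate 1 and 0 without any other 1 library of that day, and 0 with median-ratio scaling, edgeR or DESeq2. At day 4 the falls were 2 without dTAG13 replicate 2 and 3 without any other 1 library of that day, 2 with median-ratio scaling, edgeR or no variance trend, and 1 with DESeq2. The 2 that rose, named after their values were seen, were Eif2ak1 and Eif2ak3, by 0.32 and 0.50 (limma adjusted p 0.0403 and 0.0142). The 20 nearest tested genes of Eif2ak3 had a median of 0.30, and its call was lost without day 4 DMSO replicate 1 or dTAG13 replicate 2 (limma adjusted p 0.0565 and 0.0769). Eif2ak1 kept its call in 7 of 13 alternatives, being lost without DMSO replicate 1 or either dTAG13 library of the day. Of 6 targets of NRF2, the factor of the oxidative stress response, Hmox1 and Txnrd1 rose on each day and Nqo1 fell at day 4, of which Txnrd1 and Nqo1 are named after their values were seen. The number of NRF2 targets called on each day is near the share called over all tested genes. Txnrd1 lost its call without DMSO replicate 1 at day 2 (limma adjusted p 0.0508) and in 6 of 13 alternatives at day 4, among them without DMSO replicate 1 or either dTAG13 library. Hmox1 was at 86.1 and 74.9 with DMSO and 186 and 218 with dTAG13 at day 4 (1.32, standard error 0.112, limma adjusted p 5.31e-09). Mesoderm and endoderm markers (7 genes) summed at day 2 to 29.7 and 38.1 with dTAG13 and to 7.17 and 11.5 with DMSO. At day 4 the sums were 28.2 and 32.7 with dTAG13 and 6.87 and 7.41 with DMSO. Foxa2 was at 0 in day 2 DMSO and T at 0 in day 4 dTAG13. Xist, the transcript of X inactivation, was at 250 and 253 with dTAG13 against 5.41 and 5.02 with DMSO at day 2, with 129 and 138 in EpiLCs. The difference was not limited to day 2: at day 4 minus day 2 it changed by -0.35 in log2 (limma adjusted p 0.587). The 567 tested genes on the X chromosome had median differences of -0.22 at day 2 and -0.17 at day 4. On the autosomes the medians were -0.084 and -0.13. The part of other cell types, or of a difference in X inactivation, in the gene differences was not tested.

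**Figure D3:**
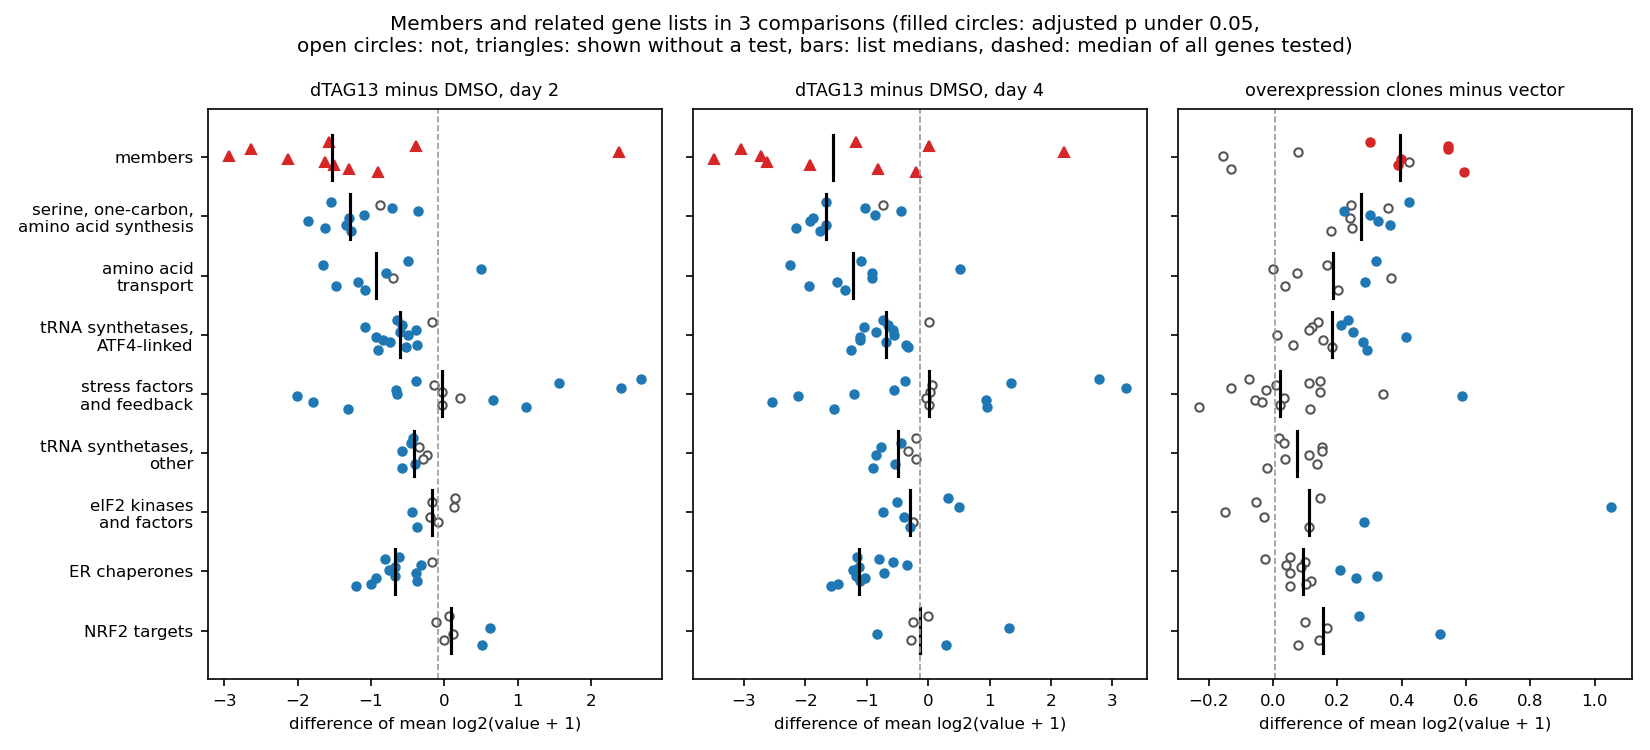
Difference of mean log2(value + 1) for the 10 genes and 8 related lists under dTAG13 at day 2 and day 4 and in the overexpression clones. Circles are genes, filled where limma's adjusted p was under 0.05, triangles are the 10 genes where they are shown without a test, black bars are list medians and dashed lines the median of all genes tested. The bars of the synthesis, transport and ATF4-linked tRNA synthetase lists lie left of the dashed line under dTAG13 and right of it in the clones, and so do those of the other tRNA synthetases (medians -0.41, -0.50 and 0.075), the ER chaperones (-0.67, -1.12 and 0.092) and the eIF2 kinases and factors (-0.17, -0.30 and 0.11).

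A change of the dTAG13 effect from day 2 to day 4 was tested for listed genes that are not members, as an interaction over all 16605 genes, of which 1.25% were called (0.771% higher and 0.482% lower). Of the 46 other ATF4-linked genes only Ddit4 passed, with a rise that was 0.81 larger at day 4 (limma adjusted p 0.0194). This call was kept in 8 of 16 alternatives: it was lost without each of the 4 day 2 libraries and each of the 2 day 4 dTAG13 libraries (limma adjusted p 0.0529 to 0.103), without a filter (0.192) and without the variance trend (0.223). The median difference between the days over these 46 genes was -0.12, against -0.037 over all genes. Without the variance trend in limma none of the 46 passed, with 6 (13.0%) at an unadjusted p under 0.05, the same number as with the trend. Over all genes the share at that p was 11.4%, and 12.1% with the trend.

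The overexpression experiment turns the question round and asks whether the genes are higher when Tex10 is raised. In the clones 6 of the 10 genes rose and none fell over the 4 stages, against a background of 8.76% called among 15255 tested, with 4.54% higher and 4.22% lower. The 6 were Atf4, Trib3, Chac1, Psat1, Pck2 and Asns. The changes were small, with a median of 0.39 over the 10 genes and 0.006 over all genes. Nupr1, which had the lowest difference of all at day 2 of dTAG13, did not pass the test, nor did Ddit3, Phgdh and Slc7a11. In these fits 8 libraries of 2 clones were set against 4 libraries of 1 vector line with stage as a covariate, so stages stand in for replicates and the spread between vector lines is unknown.

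In stage order, from EpiLCs to day 6, Atf4 was at 241, 205, 199.9 and 224 in the vector line. Clone 1 had 352, 252, 311 and 360 and clone 2 had 347, 255, 307 and 375. Every clone library was above the vector library of its stage, and the difference in log2 was 0.54 with a standard error of 0.0560, with 8 of 8 libraries higher (limma adjusted p 3.35e-08). It stayed past the threshold in 13 of 13 alternatives. Trib3 was at 16.4, 44.7, 55.6 and 60.4 in the vector line, at 36.7, 51.5, 71.2 and 107 in clone 1 and at 33.8, 48.9, 69.3 and 109 in clone 2. The clones were furthest above the vector in EpiLCs and at day 6, and over all stages the difference was 0.59 with a standard error of 0.0973, with 8 of 8 higher (limma adjusted p 0.000121). Psat1 was at 235, 307, 186 and 204 in the vector line against 340, 383, 242 and 260 in clone 1 and 342, 402, 227 and 257 in clone 2. Its difference was 0.39 with a standard error of 0.0516, with 8 of 8 higher (limma adjusted p 4.56e-06), and Psat1 and Trib3 also kept their calls in 13 of 13 alternatives.

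Pck2 was at 16.8, 41.1, 34.2 and 42.5 in the vector line, 26.4, 45.9, 41.1 and 56.6 in clone 1 and 29.5, 49.3, 42.2 and 56.5 in clone 2. It was higher in 8 of 8 clone libraries, by 0.40 (standard error 0.0872, limma adjusted p 0.00331). Asns was at 73.2, 88.5, 97.3 and 122 in the vector line, 88.4, 124, 111 and 134 in clone 1 and 89.6, 127, 121 and 145 in clone 2, again higher in 8 of 8, by 0.30 (standard error 0.0625, limma adjusted p 0.00184). Chac1 was at 8.56, 34.3, 22.2 and 33.7 in the vector line against 19.2, 25.3, 28.4 and 70.1 in clone 1 and 20.2, 31.3, 25.2 and 74.8 in clone 2. Its clones were above the vector by about the same factor in EpiLCs and at day 6, with ratios of 2.302 and 2.149, and below it at day 2 (0.54 over all stages with a standard error of 0.142, 6 of 8 libraries higher, limma adjusted p 0.0142). The difference of Chac1 was 0.35 without EpiLCs and 0.82 without day 2. Without clone 2 the calls of Pck2, Asns and Chac1 were lost (limma adjusted p 0.0913, 0.0929 and 0.14), which left 3 of 10 genes called. Pck2 was called in 12 of 13 alternatives and Asns in 11, being lost also without the variance trend (limma adjusted p 0.0528). Chac1 was called in 6 of 13. It was also lost without clone 1, the EpiLC stage or day 6 (limma adjusted p 0.0715, 0.104 and 0.231), without a filter or the variance trend (0.128 and 0.178), and with DESeq2 (adjusted p 0.185).

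Of the other 4 genes, Phgdh was at 11.4, 14.9, 6.28 and 5.42 in the vector line, 19.1, 11.9, 8.52 and 9.44 in clone 1 and 19.2, 15.6, 8.96 and 9.47 in clone 2. Of 8 clone libraries 7 were higher, and the difference of 0.42 missed the threshold (standard error 0.148, limma adjusted p 0.0721) and passed it without day 2 (0.0242). Nupr1 was at 7.66, 11.9, 14.1 and 11.9 in the vector line against 4.92, 13.2, 12.2 and 10.1 in clone 1 and 6.18, 12.9, 13.3 and 10.5 in clone 2, lower in 6 of 8 clone libraries (-0.15, standard error 0.140, limma adjusted p 0.569). Ddit3 was at 3.30, 11.5, 12.9 and 11.7 in the vector line, 3.13, 5.39, 19.7 and 15.8 in clone 1 and 3.98, 8.63, 20.2 and 14.0 in clone 2 (0.078, limma adjusted p 0.841). Its clones lay below the vector at day 2 and above it at day 4. Slc7a11 stood between 1.67 and 6.32 in all libraries, higher in 3 of 8 clone libraries (-0.13, limma adjusted p 0.742).

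**Figure D4:**
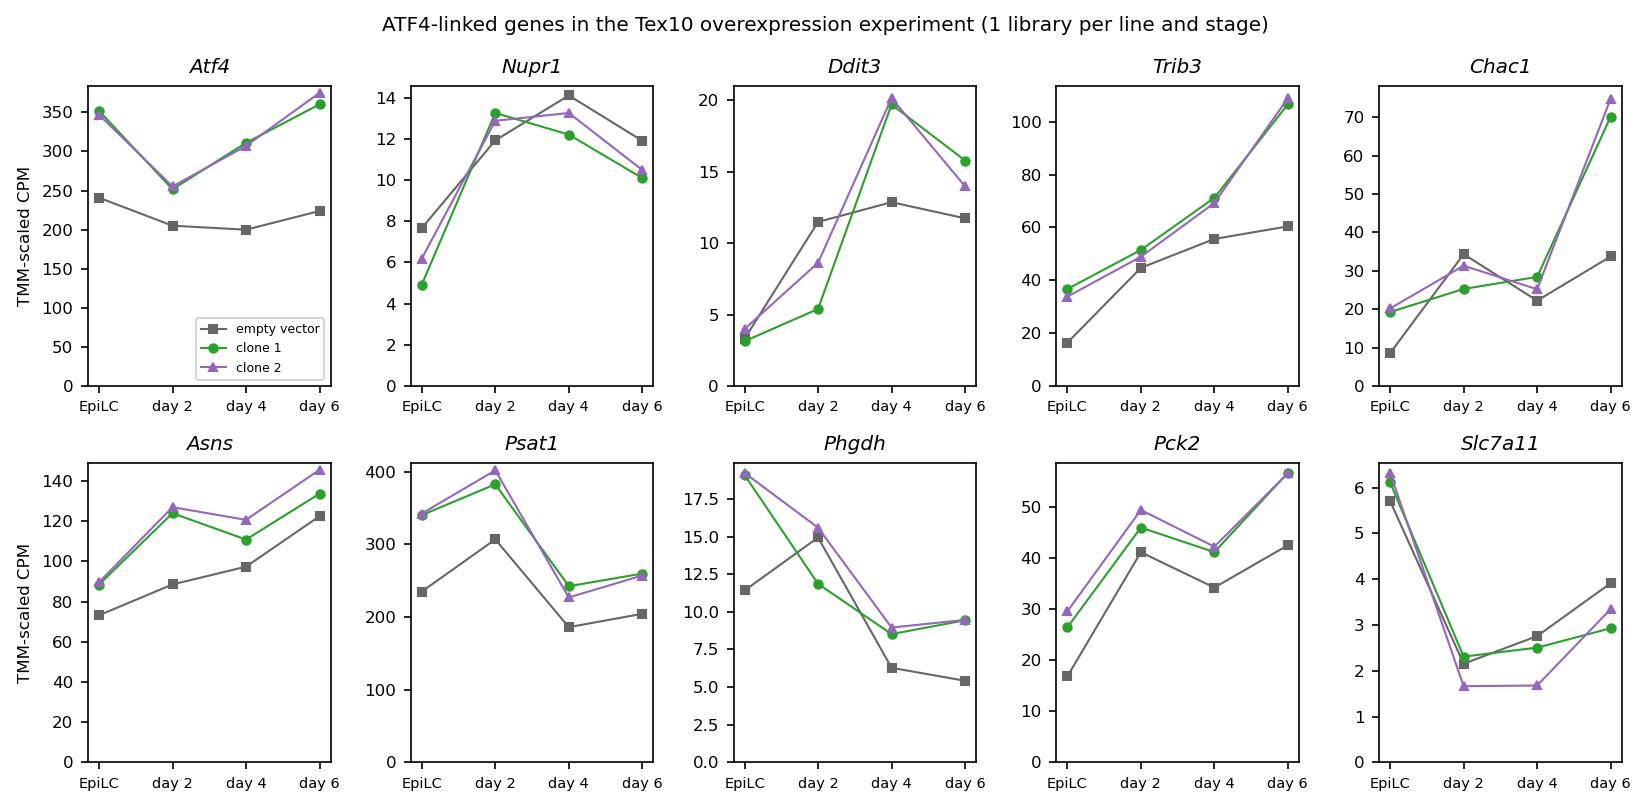
Level of each of the 10 genes by stage in the empty-vector line (grey squares), clone 1 (green circles) and clone 2 (purple triangles), in TMM-scaled CPM on axes that start at 0, with 1 library per point. In Atf4, Trib3, Psat1, Pck2 and Asns both clones are above the vector at all 4 stages, and in Chac1 and Ddit3 they are below it at day 2.

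Read stage by stage, without a test, both clones were above the vector for 8 of 10 genes in EpiLCs, 6 at day 2, 8 at day 4 and 8 at day 6. Over all tested genes both clones were above the vector for 38.7%, 37.1%, 38.7% and 36.2%, and below it for 37.1%, 36.8%, 37.2% and 35.5%. Both were above it at all 4 stages for 5 of the 10 genes, and for 5.72% of all tested genes, with 5.59% below it at all 4. In 4 of the 10 genes both clones were above the vector at one stage and both below it at another, as in 54.5% of all tested genes. Mesoderm and endoderm markers summed to 33.9 in the vector line and to 16.6 and 19.4 in the clones at day 4, and germ cell markers to 209 against 152 and 153. The epiblast markers at day 4 summed to 134.9 against 109 and 117. At day 6 the mesoderm and endoderm sums were 20.2 against 15.4 and 15.8. The germ cell sums at day 6 were 156 against 137.5 and 140, and the epiblast sums 107 against 80.7 and 99.8. At day 2 the germ cell sum went the other way, at 240.2 in the vector line and 273 and 278 in the clones, while the epiblast markers summed to 356 against 258.5 and 269. The part of these markers in the differences was not tested.

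Of the 46 other ATF4-linked genes 14 rose and none fell in the clones, and 32 did not pass. The difference was positive for 39 (84.8%) and negative for 7, with a median of 0.17, where 51.2% of all tested genes were positive. At an unadjusted p under 0.05, 23 (50%) were higher and none lower, where 11.6% of all genes were higher and 10.4% lower, and edgeR and DESeq2 on recovered reads called 13 and 11, all higher. Of the 14, 5 were synthesis enzymes, 2 transporters, 6 ATF4-linked tRNA synthetase genes and 1 a stress factor (0, 0, 3 and 0 without clone 1, and 1, 0, 1 and 0 without clone 2), of whose list of 15 the other 14 did not pass and 6 were negative (median 0.020). Nars, the asparaginyl-tRNA synthetase, rose by 0.41 (standard error 0.0612, limma adjusted p 2.69e-05), Aldh18a1, of proline synthesis, by 0.42 (standard error 0.0885, limma adjusted p 0.00203) and Jdp2 by 0.59 (standard error 0.150, limma adjusted p 0.0120), each higher in 8 of 8 clone libraries. Aldh18a1 lost its call without clone 1 or day 6 (limma adjusted p 0.0838 and 0.0556), and Jdp2 without either clone or day 6 (0.0814 to 0.141). Atf3, Ddit4 and Cebpb, which rose under dTAG13, had differences of -0.074, -0.13 and 0.11 that did not pass (limma adjusted p 0.889, 0.405 and 0.807). None of the 8 other tRNA synthetases was called by limma or was at an unadjusted p under 0.05, and 7 of the 8 were positive with a median of 0.075. Of 12 ER chaperones 3 rose and 11 were positive (median 0.092), and of 6 NRF2 targets 2 rose and 6 were positive (median 0.15). When either of the clones was left out, limma called 1 ER chaperone and none of the NRF2 targets, and edgeR and DESeq2 called none of the NRF2 targets. Of the eIF2 list, Eif2s1 and Eif2ak3 rose. Eif2s1, named after its value was seen, lost its call without clone 2 (limma adjusted p 0.12). Eif2ak3, the ER-stress kinase PERK, was between 11.9 and 27.0 in the vector line and 28.5 to 47.6 in the clones (1.05, standard error 0.102, limma adjusted p 9.84e-09), and its 20 nearest tested genes had a median difference of 0.49. The count of 14 fell to 3 without clone 1, 2 without clone 2, 5 without day 4, 2 without day 6, 5 without a filter and 2 without the variance trend.

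The same 12 libraries give the course of induction with line as a covariate. From EpiLCs to day 2, 7 of the 10 genes rose and 2 fell, where 46.3% of all tested genes were called, 24.1% higher and 22.1% lower. Ddit3 (1.04), Chac1 (0.96), Nupr1 (0.93), Pck2 (0.91), Trib3 (0.80), Asns (0.42) and Psat1 (0.26) rose, with limma adjusted p from 2.62e-07 for Pck2 to 0.00375 for Psat1. Without the vector line Chac1 rose by 0.49 and Trib3 by 0.50. Atf4 fell by 0.39 (limma adjusted p 0.000163) and Slc7a11 fell by 1.22 (limma adjusted p 0.000269). Without line as a covariate Atf4 and Psat1 lost their calls (limma adjusted p 0.104 and 0.145). Atf4 and Slc7a11 were the 2 that fell, whereas both were higher at day 2 than in EpiLCs in the DMSO cells of the dTAG13 experiment. The tables were scaled separately and their libraries made with different kits, and the difference between the experiments was not tested. From day 2 to day 4, 4 of 10 were called among 23.0% of all genes: Ddit3 rose by 0.99 and Trib3 by 0.42, and Psat1 fell by 0.73 and Phgdh by 0.77 (limma adjusted p 0.00215, 0.0214, 1.65e-08 and 0.00589). Without clone 1 there were 2 calls and without clone 2 there was 1. The value of Ddit3 was 0.64 without clone 1 (limma adjusted p 0.134). Trib3 was called in 6 of 11 alternatives of this step, being lost without either clone, without line as a covariate (limma adjusted p 0.23), without a filter (0.109) and without the variance trend (0.148). From day 4 to day 6, where 6.88% were called (3.49% higher and 3.38% lower), Chac1 rose by 1.13, Trib3 by 0.45, Pck2 by 0.39 and Asns by 0.29 (limma adjusted p 0.000323, 0.0382, 0.0424 and 0.0360). The count of 4 was 1 without clone 1 and 0 by limma without clone 2, and in the fit of all lines 5 members were at an unadjusted p under 0.05 and higher, as were 10.4% of all tested genes, with 10.2% lower. Without line as a covariate Trib3, Pck2 and Asns lost this last call (limma adjusted p 0.34, 0.24 and 0.247), and of 11 alternatives Chac1 kept it in 9, Asns in 6 and Trib3 and Pck2 in 5 each.

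In testis the tissue differs, and the comparison asks what the genes do when Tex10 is deleted there. Of the 10 genes 9 passed the filter, Nupr1 only through its cKO libraries. Of the other 8, 4 rose and Asns fell, where 29.1% of 20658 tested genes were called and 16.1% called higher. Atf4 was at 55.0 and 52.5 in cKO and 33.4 and 34.5 in wildtype (0.65, standard error 0.143, limma adjusted p 0.00449). Pck2 was at 7.10 and 6.61 against 2.05 and 1.41 (1.53, limma adjusted p 0.00320), Psat1 at 35.5 and 30.1 against 17.8 and 9.89 (1.24, limma adjusted p 0.00193), and Phgdh at 4.60 and 5.85 against 2.23 and 1.10 (1.25, limma adjusted p 0.0156). In these 4 genes both cKO libraries were above both wildtype libraries, which largely follows from their being called. Slc7a11, at 5.85 and 4.32 against 2.91 and 2.67, also had both above without being called. Over all tested genes, called or not, 34.8% had both above and 31.5% both below. Nupr1 was at 2.65 and 2.03 in cKO and had no read in either wildtype library, which makes it at least 9.51-fold higher against a floor of 3 reads over the wildtype group. This is a description, since a gene with no wildtype read could pass the filter only by being higher in cKO. Asns was lower, at 56.6 and 57.2 against 87.1 and 91.5 (-0.64, limma adjusted p 0.00238). Ddit3 stood at 58.5 and 62.4 against 60.4 and 58.7 (0.020, limma adjusted p 0.929), and Chac1 and Slc7a11 did not pass. Trib3, at 0.975 and 1.27 against 0.342 and 0, was too low to test. Of the 43 other ATF4-linked genes tested in testis, 15 rose and 2 fell, with 34 positive differences and a median of 0.42, against 0.013 over all genes. Without the variance trend 9 of them were called.

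The make-up of the testis libraries moved with these changes. The 5 somatic markers (Sox9, Amh, Hsd3b1, Star and Acta2) summed to between 377 and 542 in cKO against 127 to 212 in wildtype, and the 4 germ cell markers to between 1718 and 1932 against 2314 to 3340, with none of the 9 at 0. Prm1, a sperm protamine, made up most of the germ cell sum, at 1347 and 1553 in cKO against 1833 and 2921 in wildtype, whereas Sycp3, of the meiotic chromosome axis, was at 60.3 and 48.7 against 46.9 and 38.1. Their part in the gene differences was not tested. With 2 libraries a group, the difference of Phgdh ran from 0.94 to 1.56 when 1 library was left out. Its call was lost without cKO replicate 2 and without wildtype replicate 2. Without the variance trend Pck2 and Phgdh kept their calls, and Atf4, Psat1 and Asns lost theirs (limma adjusted p 0.0597, 0.0571 and 0.0598). Nupr1 is not counted here, since it could pass the filter only by being higher in cKO.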

How the data were processed

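RNA-seq of 26 samples in 15 groups was used. Reads were processed with Bowtie2 2.3.4.3, SAMtools 1.9, HTSeq 0.11.2 and edgeR 3.26.8 on mm10, per the submitters' processing notes. The values the authors deposited are TMM-scaled CPM, a depth-corrected signal, per the deposited tables' names. In every library they are whole multiples of 1 read within a tolerance of 0.1 read, and dividing by it recovered 100% of values as whole reads. The deposited tables also give the authors' log2 fold changes and p-values, of which fold changes alone are quoted. Genes with a mean of at least 1 were tested with limma 3.58.1 (R 4.3.3, variance trend) on log2(value + 1), with Benjamini-Hochberg adjustment over all genes of a comparison and a threshold of 0.05. Fits took every library of a table, with stage as a covariate for the clones and line as a covariate for the stage steps. The script was tested on simulated data. Gene lists and promoters were matched by symbol, loci to GENCODE vM21 (GRCm38), and sequences are RefSeq's. The members and all lists were chosen with earlier results of these data known. Named genes are all members, and of the other lists the 4 largest increases and 4 largest decreases that were called and did not overlap between groups, per comparison (dTAG13 at each day, and overexpression). A gene named in one comparison is also quoted in others. Any further gene named, Aldh1l2, Cars, Slc38a2, Mars, Sesn2, Vldlr, Herpud1, Eif4ebp1, Atf5, Eif2ak1, Eif2s1, Txnrd1, Nqo1 and Xist among them, was chosen after its values were seen. Alternatives were a pseudocount of 0.1, no filter or a mean of at least 5, median-ratio scaling, no variance trend, edgeR 4.0.16 and DESeq2 1.42.0 on the recovered reads, the replicate number as a block, and leaving out libraries, clones, lines or stages. A floor of 3 reads covers counting error only, since reads carried no molecular identifiers.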

Additional observations from a re-analysis of the deposited data

Results flagged for a closer look

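The effect of dTAG13 at day 4 minus that at day 2 passed the interaction test for 3 listed genes that are not members: Ddit4 (0.81), Hmox1 (0.70) and Nqo1 (-0.94, the one of the 3 that fell at day 4), with limma adjusted p of 0.0194, 0.0270 and 0.0103. These calls were kept in 8, 9 and 12 of 16 alternatives: none of the 3 passed without a filter or without the variance trend, and leaving out 1 library ended those of Ddit4 in 6 of 8 cases, Hmox1 in 5 and Nqo1 in 2. In the overexpression experiment 4 members had both clones above the vector at one stage and both below it at another, a pattern that 54.5% of all tested genes show, and these differences were not tested. The difference between the stages, in log2, was 1.39 for Chac1 (EpiLCs against day 2), 1.26 for Ddit3 (day 4 against day 2), 0.53 for Nupr1 (day 2 against EpiLCs) and 0.40 for Slc7a11 (EpiLCs against day 4). With 1 vector library per stage, a single library decides each of these.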

How the results depend on the processing

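Under dTAG13 the counts of other ATF4-linked genes called stayed within 1.5 times of the reported ones in all alternatives run (32 to 40). The replicate numbers did not establish pairs: deviations of same-numbered libraries correlated at -0.0246 (day 2), -0.0686 (day 4) and 0.116 (testis). With the number as a replicate block 5507, 6894 and 7185 of all genes were called at day 2, at day 4 and in testis. The counts of other ATF4-linked genes were 39, 40 and 18. Under the block Atf4, Pck2, Psat1, Phgdh and Asns kept their calls in testis, with Nupr1 not counted. Leaving out 1 library gave 3615 to 4190 calls over all genes at day 2, the lowest without DMSO replicate 1. For the difference between the days it gave 45 to 363 calls (0 to 1 other ATF4-linked), no filter gave 16 (0), and no variance trend gave 0 (0) in limma, with 1898 genes at an unadjusted p under 0.05. In the clones no filter gave 642 calls (5 other ATF4-linked), no trend 431 (2), and leaving out a clone 420 to 444 (2 to 3, with 3 to 5 members). Without day 2, day 4 or day 6 there were 772, 680 and 786 calls, with 5 others without day 4 and 2 without day 6. From day 2 to day 4 no trend gave 2238 calls and leaving out a line 1569 to 4078 (1 to 5 members). From day 4 to day 6 the values were 476 without a filter (1 member), 276 without the trend (0 members), 498 without the line covariate, that is with no replicate block (1 member), 256 to 1429 without a line (0 to 5 members), and 2 members with a pseudocount of 0.1. In testis a mean of at least 5 left 3 members called, no trend 2135 genes (3 members, 9 others), and leaving out a library 3199 to 6119 genes (4 to 6 members, against 6 in the fit reported, counts that include Nupr1). The cause of these changes was not tested.

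Among the tested differences of single genes, signs reversed in 12 cases, none of which had passed the test. Among the members' dTAG13 values, given without a test, 3 changed sign when 1 library was left out: Atf4 at day 4 (-0.036 without DMSO replicate 2), and the difference between the days of Nupr1 (-0.066) and Ddit3 (0.039). In the clones Ddit3 was -0.093 without day 4 and -0.000522 without day 6, and -0.013 to 0.17 without a clone. Without a line, Phgdh ran from -0.46 to 0.037 from EpiLCs to day 2 and from -0.055 to 0.10 from day 4 to day 6, and from day 2 to day 4 Nupr1 ran from -0.035 to 0.13 and Asns from -0.12 to 0.032. In testis Ddit3 was -0.012 with median-ratio scaling, -0.007799 with DESeq2 and -0.025 to 0.066 without a library. Low read numbers limit Slc7a11 and, under dTAG13, Nupr1 most. Other members also had few reads in some libraries. With dTAG13, Phgdh had 12 and 13 at day 4 and Chac1 had 16 to 30 over both days. Ddit3 had 22 and 17 with DMSO at day 2. In wildtype testis Phgdh had 13 and 7 reads and Pck2 had 12 and 9.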
